A study of Rattus norvegicus with 18 samples.

Results

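The genes described here encode the proteins of the mitochondrial ribosome. They were taken by name from rat expression arrays: every probe for a gene whose symbol, as printed on the array or as matched through its accession, begins with Mrpl or Mrps and a number. The rule found 71 probes for 61 genes, among the 41012 probes and 15502 named genes of the array, and itself used no measured change. The gene set was chosen with earlier results of these data known, and Mrpl41 was named in an account of the whole series. Of the 61 genes, 39 are named Mrpl, for the large subunit, and 22 were found under an Mrps name, for the small subunit. One of those, Mrps36, is now called Kgd4, because its product is a subunit of the alpha-ketoglutarate dehydrogenase complex and no part of the ribosome. Each gene is represented by its probe of highest mean signal, and 9 genes had more than 1 probe.

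The mitochondrial ribosome translates the few messages of mitochondrial DNA, which encode core subunits of the respiratory chain and ATP synthase. All of its proteins are nuclear-encoded and imported, while its RNAs are transcribed inside the organelle. Many of its proteins descend from bacterial ribosomal proteins, and others were added during the evolution of mitochondria and sit mainly on the ribosome's surface. Neurons depend on oxidative phosphorylation, so this machinery is of interest in ischemic brain.

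Brain cortex was taken from male rats of the strain Crl:CD(SD)BR weighing 250 to 280 g, at 2 h or 6 h. The rats were sham-operated and given no treatment, or were made ischemic by MCAO (middle cerebral artery occlusion, the standard stroke model) and treated with saline or with erythropoietin, a hormone of red cell production studied as a neuroprotectant. That gives 6 groups of 3 arrays, 18 in all, on 5 slides. The labels give neither the erythropoietin dose nor the rats' age, and no sham rats given saline or erythropoietin are among the samples. They number the replicates without saying that each is a separate rat, so p-values measure the spread between these samples.

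Levels are log2 processed signals minus the array's 75th percentile. A difference between groups is therefore a log2 fold change relative to the bulk of the array, and a difference of 1 is a doubling. A gene was tested if its probe had a usable value on all arrays and if, in 1 group or more, no array fell short of the scanner software's mark for signal well above background. Differences come from limma's moderated test over all 18 arrays, with Benjamini-Hochberg adjustment over the 28637 probes tested, and a gene is said to rise or fall where its adjusted p is below 0.05. Of the 61 genes, 58 were tested, beside 12429 named genes in all, and 56 of the 58 were above background on all 18 arrays. The other 2 were Mrps2, on 17 arrays, and Mrps10, on 14. Because a probe's brightness depends on its own sequence, levels are compared between samples and never between genes as amounts of RNA.

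The arrays were not alike in quality. In 6 of them the signal of the spike-in RNAs rose more steeply with dose (slopes of 0.914 to 0.941 against 0.788 to 0.866 in the other 12), and fewer probes were above background (61.5% to 66.4% against 68.6% to 80.6%). These 6 were replicate 1 of saline-treated ischemia at 2 h, replicate 1 of erythropoietin-treated ischemia at 2 h, replicate 1 of sham at 6 h, replicates 1 and 3 of saline-treated ischemia at 6 h and replicate 3 of erythropoietin-treated ischemia at 6 h. All but the replicates 1 of saline-treated ischemia were on slide 5. That slide held no other array and was scanned on a different day from the rest. No sham or saline array of 2 h was on it. The median level of the 58 genes was 1.49 to 1.83 on the steep arrays and 1.46 to 1.82 on the others. That of all named genes tested was -0.64 to -0.54 over the arrays, so the probes of the 58 genes were brighter in the median. Wherever values over all named genes stand beside the 58, this gap in probe brightness goes with them, and its part was not tested. Neuron, astrocyte and oligodendrocyte markers were above background on all arrays, as cortex should show. So were all 9 markers of striatal neurons, the region below the cortex, and their summed linear signal, in units of the array's 75th percentile, was 16.4 to 27.9 in sham, 25.7 to 35.5 with saline and 30.3 to 34.2 with erythropoietin at 2 h. At 6 h it was 20.4 to 26.9 in sham, 31.3 to 37.5 with saline and 34.3 to 43.7 with erythropoietin.

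Mrpl41 fell after ischemia at both times and with either treatment. Its product is a mitochondrion-specific protein of the large subunit that is also known as a Bcl-2-binding protein with a role in apoptosis. At 2 h its level was 4.79, 4.86 and 5.22 in the sham samples (replicates 1 to 3), 4.20, 3.93 and 4.26 in saline-treated ischemia, and 4.16, 4.06 and 4.11 in erythropoietin-treated ischemia. At 6 h it was 5.25, 5.11 and 5.14 in sham, 4.44, 4.12 and 4.09 with saline, and 3.93, 4.17 and 3.99 with erythropoietin. Every ischemic sample was below every sham sample, with no overlap at either time.

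With saline, Mrpl41 was lower than in sham by a log2 difference of -0.83 ± 0.13 (SE, n = 3 per group) at 2 h, 1.78-fold, with an adjusted p of 0.00322 in limma's test. The difference at 6 h was -0.95 ± 0.13, 1.93-fold (adjusted p = 0.000376). With erythropoietin the differences from the same sham samples were -0.85 ± 0.13 at 2 h (adjusted p = 0.00311) and -1.14 ± 0.13 at 6 h (adjusted p = 5.97e-05), the latter 2.20-fold. Among the named genes that fell, ordered by the size of the fall, Mrpl41 stood 4th of 43 at 2 h and 20th of 845 at 6 h with saline. Over all named genes, called or not, 6.85% at 2 h and 2.79% at 6 h had an estimated difference at least as low.

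A second probe for Mrpl41 gave the same order of groups. Its log2 differences from sham were -0.70 (adjusted p = 0.00606) and -0.84 (adjusted p = 0.000506) with saline at 2 h and 6 h. With erythropoietin they were -0.72 (adjusted p = 0.00478) and -1.0 (adjusted p = 7.77e-05). Within single slides that held both groups, the Mrpl41 difference between saline-treated ischemia and sham was -0.59, -0.94 and -0.96 on 3 slides at 2 h and -0.99 and -1.17 on 2 slides at 6 h. In the pair at -0.59 the saline array was steep and the sham array was not (slopes of 0.941 and 0.788). The other pairs were each of 1 kind of array. Levels ran from 3.99 to 5.25 on steep arrays and from 3.93 to 5.22 on the others. Both kinds of array held sham and ischemic samples, so these spans cannot show whether slope shifted the level. Without the steep arrays, with 12 left, the difference with saline at 2 h was -0.86 and did not pass limma's test (adjusted p = 0.0877). At 6 h saline replicate 2 alone was left, and it differed from the mean of the sham samples left by -1.0. The calls at 2 h were also lost when only the arrays compared were fitted (adjusted p = 0.273 with saline and 0.174 with erythropoietin), and that with erythropoietin with slide as a fixed block (-0.88, adjusted p = 0.0689).

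**Figure D1:**
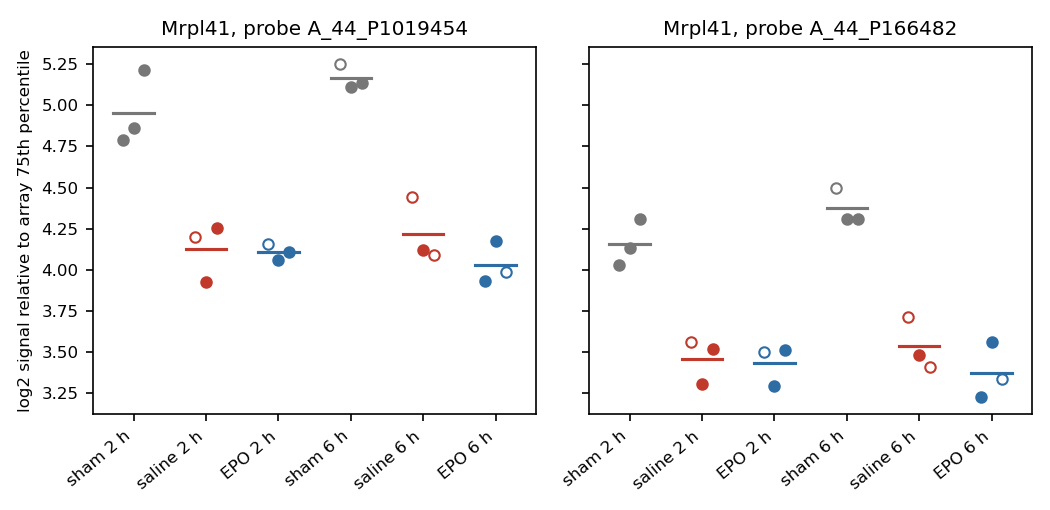
Level of Mrpl41 on each array (log2 signal minus the array's 75th percentile) for its probe of highest signal (left) and its second probe (right). Points are the 3 replicates in order, open points are arrays of steep spike-in slope, and bars are group means; in both panels every ischemic sample lies below every sham sample of its time.

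No difference in the level of Mrpl41 between the treatments, and none in its response between the times, passed the test. Erythropoietin differed from saline by -0.02 ± 0.13 at 2 h (95% interval -0.29 to 0.25, adjusted p = 1) and by -0.19 ± 0.13 at 6 h (-0.46 to 0.08, adjusted p = 0.778). The effect of ischemia at 6 h minus that at 2 h was -0.12 ± 0.18 (adjusted p = 0.959), with an interval of -0.50 to 0.26. Sham samples differed by 0.21 ± 0.13 between 6 h and 2 h (adjusted p = 0.66). None of these 4 differences passed the test, and each interval allows a change of at least 0.2 in one direction.

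The promoter windows of Mrpl41 and of Mrpl36, the other gene called with saline, are shown because these are the members whose messages differed between saline-treated ischemia and sham. They were taken from RefSeq's GRCr8 assembly and cover the 250 bases before the 1 start per gene that the table uses, 5′ to 3′ on the gene's strand; capitals mark motif matches. Mrpl41 lies on the minus strand at chr3:28178837-28179755, its window at chr3:28179756-28180005. The window of Mrpl36, also on the minus strand, is at chr1:31795122-31795371; it lies inside the annotated gene span, chr1:31794025-31797446, so it precedes the start used in RefSeq's promoter table but not the upstream end of that span. The span of Mrpl36 also overlaps Ndufs6, which encodes a subunit of respiratory complex I.
Mrpl41: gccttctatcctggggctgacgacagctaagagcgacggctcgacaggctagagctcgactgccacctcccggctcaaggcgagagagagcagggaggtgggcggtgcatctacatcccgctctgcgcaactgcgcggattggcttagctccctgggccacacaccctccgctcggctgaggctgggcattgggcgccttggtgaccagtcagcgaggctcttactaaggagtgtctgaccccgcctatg
Mrpl36: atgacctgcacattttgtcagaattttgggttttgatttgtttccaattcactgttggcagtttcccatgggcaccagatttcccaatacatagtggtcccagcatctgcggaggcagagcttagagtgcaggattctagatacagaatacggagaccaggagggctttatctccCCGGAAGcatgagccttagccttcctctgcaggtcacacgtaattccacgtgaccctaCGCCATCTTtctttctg

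Both strands were searched for 3 motifs of factors known for nuclear genes of mitochondrial proteins: GCGC, any 2 bases and GCGC for NRF1, CCGGAAG for ETS factors such as GABPA (also called NRF2), and AAGATGGCG for YY1. The Mrpl41 window, 64.0% G or C, held none of them. The Mrpl36 window, 48.4% G or C, held CCGGAAG and, on the opposite strand, AAGATGGCG. Of the 61 genes, 50 had a window in the RefSeq table. The NRF1 motif was in 8 of the 50 (16.0%) and in 6.9% of 19005 protein-coding genes, the ETS motif in 10 of the 50 and in 9.52% of all, and the YY1 motif in Mrpl36 alone and in 0.784% of all. The 50 windows had a median of 54.4% G or C, against 54.8% for all. A match describes letters in this window and was not tested as a binding site.

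At 2 h, Mrpl41 was the only 1 of the 58 genes to pass the test in saline-treated ischemia against sham, and 1.63% of all named genes passed (0.346% lower, 1.28% higher). The median log2 difference of the 58 genes was 0.04, with 38 above 0, beside a median of -0.05 over all named genes. The groups of 3 samples did not overlap for 5 higher and 3 lower genes, where 8.45% and 9.37% of all named genes did so. Estimates for the 58 were tight: the 95% interval lay within ±0.5 for 48 of them, with a median half-width of 0.19.

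The other genes of smallest p at 2 h did not pass. Mrps33, a mitochondrion-specific protein of the small subunit, was at 2.87, 2.96 and 2.98 in sham and 3.21, 3.10 and 3.22 with saline. The samples did not overlap, yet the difference of 0.24 ± 0.08 had an adjusted p of 0.242. Mrps9, which descends from a bacterial small-subunit protein, differed by 0.18 ± 0.07 (adjusted p = 0.327), and Mrpl42 by -0.22 ± 0.13 (adjusted p = 0.554).

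Erythropoietin-treated ischemia at 2 h gave the same count against sham: 1 of 58 genes passed, Mrpl41, beside 1.8% of all named genes (0.362% lower, 1.44% higher). The samples did not overlap for 9 higher genes and 1 lower gene, and for 9.67% and 11.6% of all named genes. The median of the 58 was 0.05, with 39 above 0, and that of all named genes -0.04. Mrpl18, which carries a role in the import of 5S ribosomal RNA, differed by 0.15 ± 0.06 (adjusted p = 0.308), Mrpl15 by 0.22 ± 0.09 (adjusted p = 0.337) and Mrps18b by -0.23 ± 0.21 (adjusted p = 0.614). These small medians at 2 h have no firm sign. In the authors' values, which are not scaled between arrays, they were -0.03 with saline and -0.06 with erythropoietin.

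**Figure D2:**
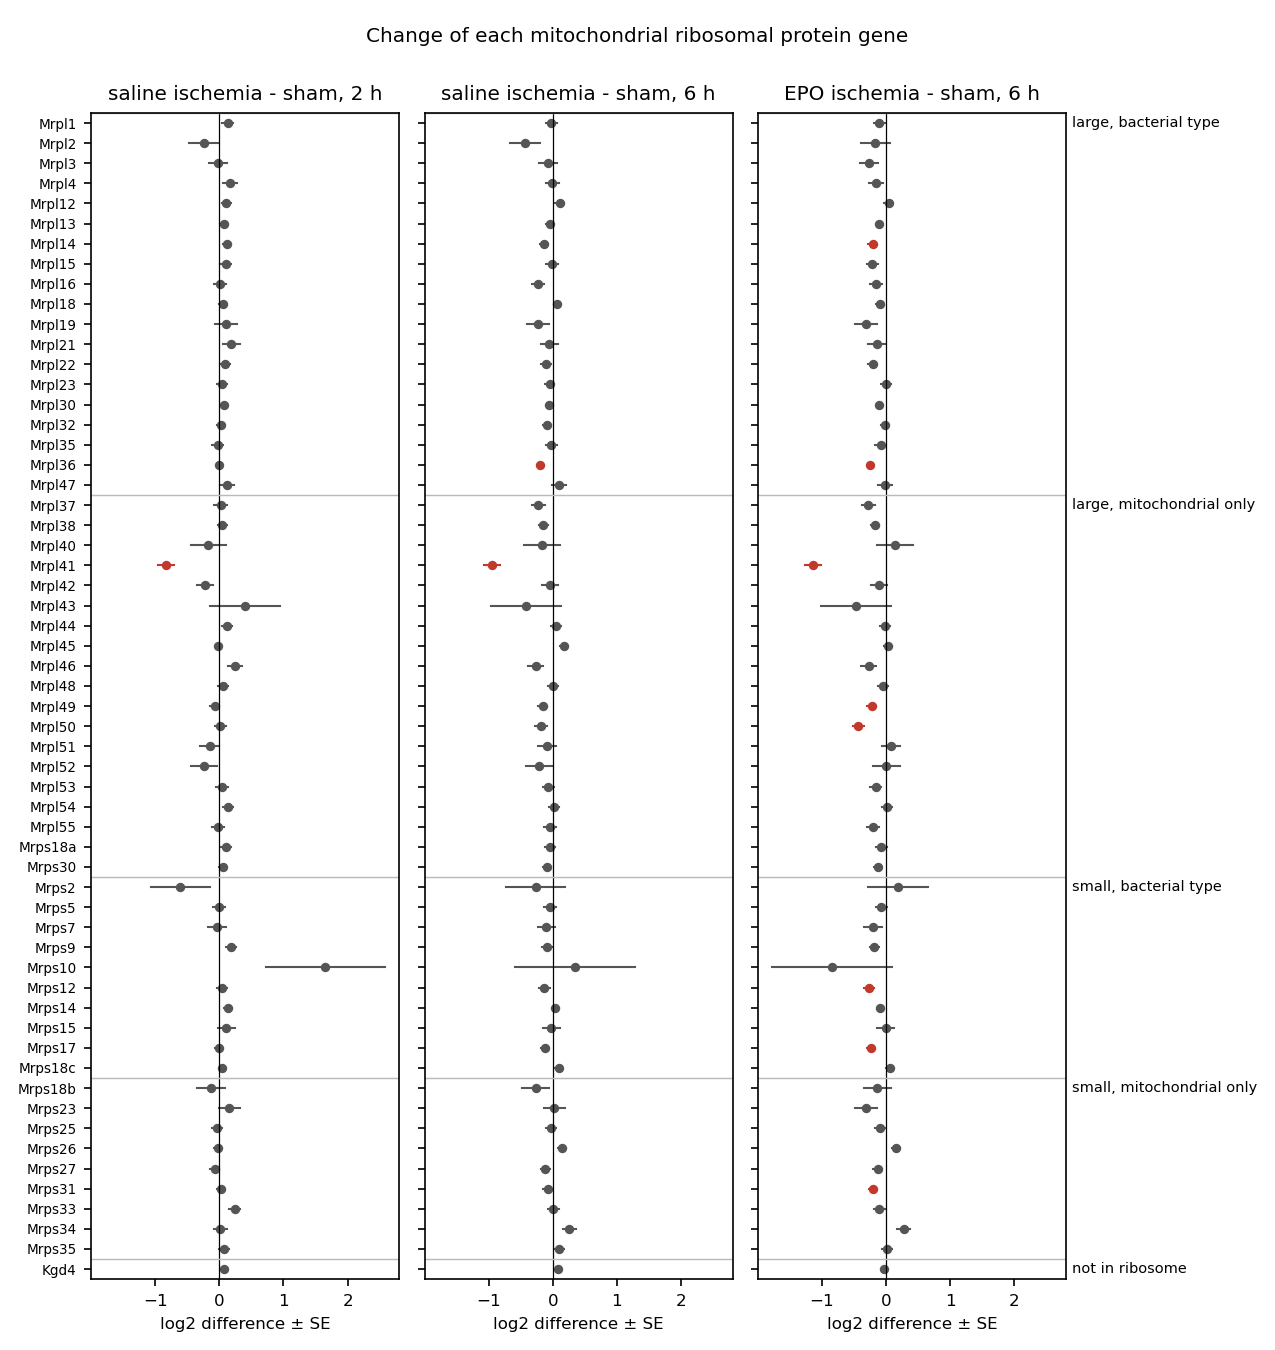
Log2 difference from sham ± SE of the 58 genes tested, in saline-treated ischemia at 2 h and 6 h and erythropoietin-treated ischemia at 6 h, ordered by subunit and origin. Red marks an adjusted p below 0.05; Mrpl41 is lowest at 2 h and 6 h with saline and most others lie near 0, with Mrps10, Mrps2 and Mrpl43 having the widest errors.

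At 6 h, 2 of the 58 genes passed in saline-treated ischemia, Mrpl41 and Mrpl36, both lower. Among all named genes 13% passed, 6.8% lower and 6.16% higher. The median difference of the 58 was -0.06, with 42 below 0 beside -0.09 over all named genes. The samples did not overlap for 11 lower and 5 higher genes, with 22.3% and 13.1% of all named genes doing so.

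Mrpl36 encodes a small zinc-binding protein of the large subunit with a bacterial counterpart. Its level at 6 h was 0.83, 0.88 and 0.87 in sham, 0.71, 0.68 and 0.58 with saline, and 0.60, 0.57 and 0.63 with erythropoietin. No ischemic sample reached the lowest sham sample, and the spread within each group was small. The log2 difference was -0.20 ± 0.05 with saline (1.15-fold, adjusted p = 0.0138) and -0.26 ± 0.05 with erythropoietin (1.19-fold, adjusted p = 0.00199). At 2 h Mrpl36 was 0.81 to 0.87 in sham, 0.80 to 0.87 with saline and 0.83 to 0.85 with erythropoietin, all overlapping.

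The effect of ischemia on Mrpl36 at 6 h minus that at 2 h was -0.19 ± 0.06 and did not pass (adjusted p = 0.198). On slides holding both groups its difference with saline at 6 h was -0.20 and -0.24. The call with saline was lost in limma's test without sham replicate 2 (adjusted p = 0.0519), sham replicate 3 (0.0503) or saline replicate 3 (0.0704). Without the steep arrays saline replicate 2 alone was left at 6 h, and the difference was -0.19. Quantile scaling, normexp background and the unscaled values gave adjusted p-values of 0.0654, 0.131 and 0.597.

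No gene of the 58 rose at 6 h. Mrpl45, which links the ribosome's exit site to the inner membrane, was at 1.77 to 1.98 in sham and 2.04 to 2.11 with saline, a difference of 0.18 ± 0.06 with an adjusted p of 0.0795. Mrps34, needed for a stable small subunit, was at 4.84, 4.58 and 4.56 in sham and 4.95, 4.86 and 4.94 with saline (0.26 ± 0.10, adjusted p = 0.119). In both genes the samples did not overlap.

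The picture by subunit and origin was even. With saline at 6 h, 1 of 19 genes of bacterial origin in the large subunit fell (Mrpl36) and 1 of 19 mitochondrion-specific ones (Mrpl41), with medians of -0.06 and -0.09. None of the 10 small-subunit genes of bacterial origin and none of the 9 mitochondrion-specific ones passed, with medians of -0.07 and 0.01. At 2 h the 4 medians lay between 0.01 and 0.07. Kgd4, outside the ribosome, differed by 0.07 at both times and did not pass.

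**Figure D3:**
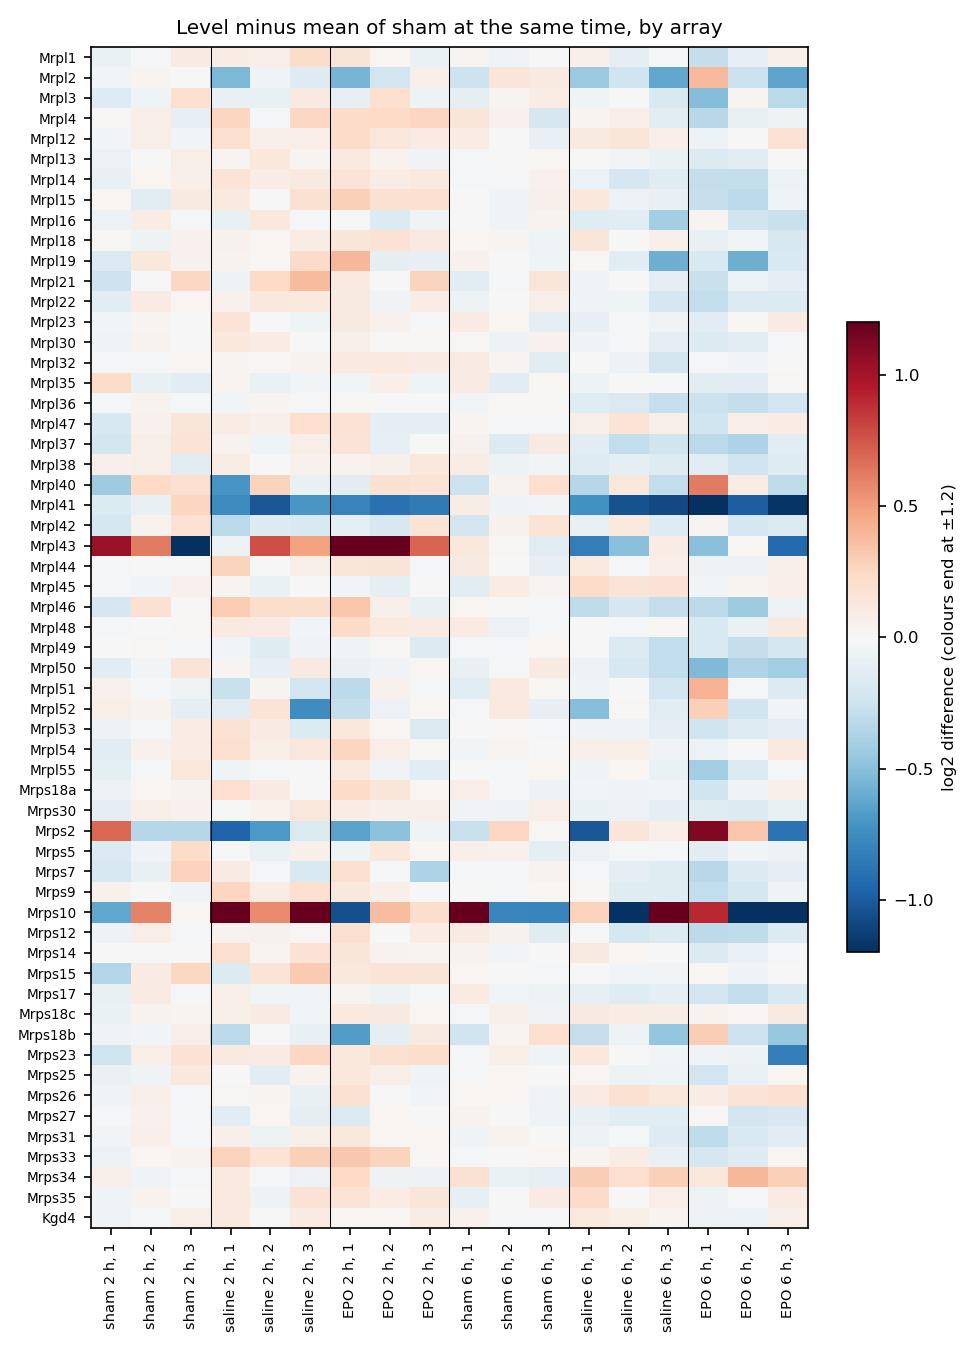
Level of each of the 58 genes on each of the 18 arrays minus the mean of the sham samples of the same time (log2, red higher, blue lower, colours ending at ±1.2). Mrpl41 is blue in all 12 ischemic samples, while the rows of Mrps10, Mrps2 and Mrpl43 vary as much within groups as between them.

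More genes passed at 6 h in erythropoietin-treated ischemia against sham: 8 of 58, all lower. The share of all named genes was also larger, 19% in all, 10.8% lower and 8.22% higher, so the count of 8 lower genes is close to what the array as a whole showed. The median difference of the 58 was -0.12, with 47 below 0, beside a median of -0.01 over all named genes. The samples did not overlap for 18 lower genes and 1 higher gene (21.5% and 13.7% of all named genes).

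After Mrpl41 and Mrpl36, the clearest was Mrpl50, a mitochondrion-specific protein of the large subunit. Its level was 0.26, 0.34 and 0.46 in sham, 0.29, 0.16 and 0.05 with saline and -0.17, -0.005 and -0.07 with erythropoietin. The erythropoietin samples lay below all the others, while the saline samples overlapped sham. The difference from sham was -0.43 ± 0.09 with erythropoietin (1.35-fold, adjusted p = 0.00476).

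The remaining 5 calls were smaller, between -0.26 and -0.21. Mrps12, the counterpart of a bacterial protein of the decoding centre, was at 2.53, 2.48 and 2.28 in sham and 2.12, 2.12 and 2.26 with erythropoietin (difference -0.26 ± 0.08, adjusted p = 0.0378). Mrps17, a ribosomal-RNA-binding protein with a bacterial counterpart, was at 2.28, 2.15 and 2.12 in sham and 1.96, 1.90 and 2.00 with erythropoietin (-0.23 ± 0.06, adjusted p = 0.0212). Mrpl49, a mitochondrion-specific protein, fell from 1.14 to 1.18 in sham to 0.87 to 0.97 (-0.23 ± 0.07, adjusted p = 0.0429).

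Mrpl14, the counterpart of a bacterial protein at the subunit interface, was at 1.76 to 1.84 in sham and 1.502, 1.498 and 1.725 with erythropoietin (-0.21 ± 0.07, adjusted p = 0.0475). Mrps31, mitochondrion-specific, was at 3.33 to 3.42 in sham and 3.06 to 3.24 with erythropoietin (-0.21 ± 0.06, adjusted p = 0.0407). In these 5 genes the saline samples lay between or across the other groups, and none passed with saline. On the higher side Mrps34 (0.28 ± 0.10, adjusted p = 0.0809) and Mrps26 (0.15 ± 0.06, adjusted p = 0.146) did not pass.

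These smaller calls rest on few samples. The count of 8 became 3 without erythropoietin replicate 1 or 2 at 6 h, 4 without sham replicate 1 or 2 at 6 h, and 5 without sham replicate 3 at 6 h or saline replicate 1 at 2 h. It was 2 without the steep arrays and 4 with the replicate number as a block (Mrpl41, Mrpl36, Mrpl50 and Mrps17). Each of the 8 kept its direction in all 34 alternatives, and passed the test in 34 (Mrpl41), 32 (Mrpl36), 31 (Mrpl50), 26 (Mrps17), 23 (Mrps12), 17 (Mrps31), 12 (Mrpl49) and 9 (Mrpl14) of them. These are not independent checks: 18 of the 34 leave out 1 array each, and leaving out an array of another group does not change the estimate.

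**Figure D4:**
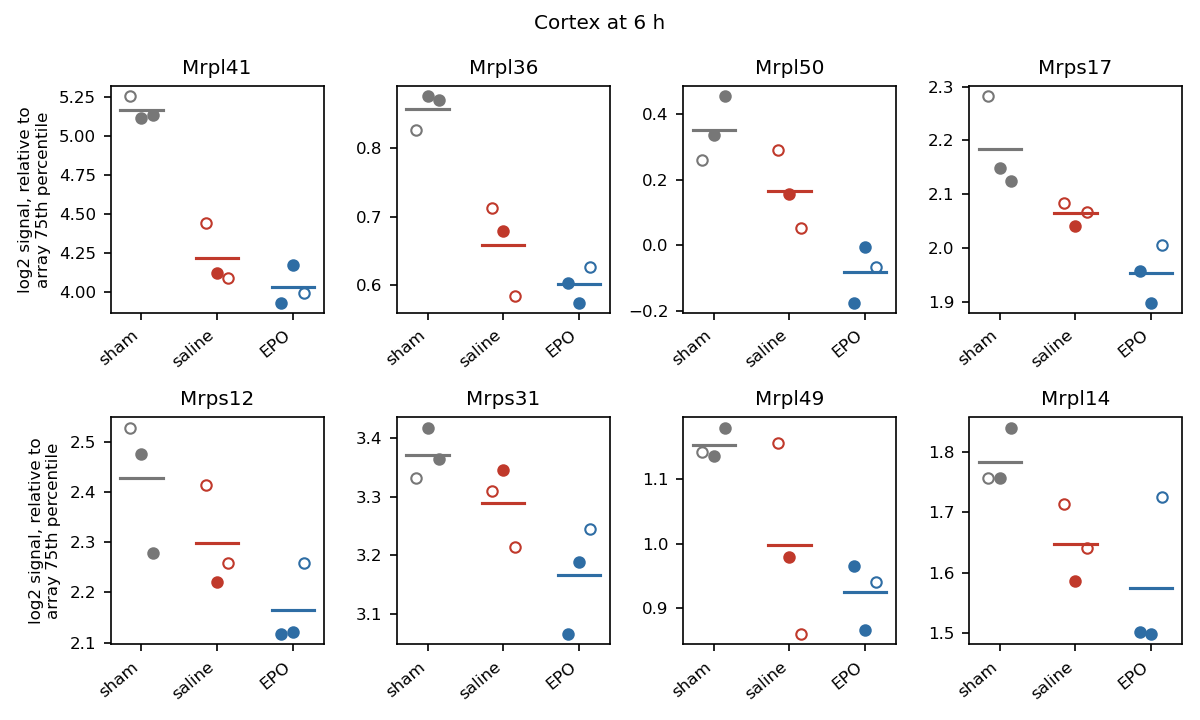
Level at 6 h (log2 signal minus the array's 75th percentile) of the 8 genes lower in erythropoietin-treated ischemia than in sham, with 1 point per sample, open for arrays of steep spike-in slope, and bars at group means; each panel has its own scale. Erythropoietin samples lie below all sham samples in each panel, and saline samples do so only for Mrpl41, Mrpl36, Mrps17 and Mrpl14.

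The direct comparison of erythropoietin with saline gave no call among the 58 genes at either time, nor among the 12429 named genes (0%) or the 28637 probes. In limma's test, unadjusted p-values below 0.05 numbered 0 of 58 at 2 h and 5 of 58 at 6 h, and over all named genes 152 and 518. At 6 h, 46 of the 58 genes were below 0 and the median difference was -0.07, beside 0.03 over all named genes. Within single slides the median of the 58 was -0.178 on slide 2, where the saline array was steep and the erythropoietin array was not. It was -0.085 on slide 3 (neither array steep) and 0.028 on slide 5 (both steep). At 2 h the median was 0.01, and the samples did not overlap for 2 higher genes and 1 lower gene (2.74% and 1.94% of all named genes). The 58 genes' 95% intervals lay within ±0.5 for 52 at 2 h and 50 at 6 h.

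At 6 h the 5 genes with an unadjusted p below 0.05 were all lower with erythropoietin. Mrpl18 was at 2.56, 2.42 and 2.47 with saline and 2.33, 2.38 and 2.23 with erythropoietin, with no overlap, and a difference of -0.17 ± 0.06 (adjusted p = 0.778). Mrpl50 differed by -0.25 ± 0.09, Mrpl45 by -0.16 ± 0.06, Mrpl15 by -0.21 ± 0.09 and Mrps14 by -0.13 ± 0.06, each with an adjusted p of 0.778. A second probe for Mrpl18 overlapped, at 1.57 to 1.88 with saline and 1.25 to 1.88 with erythropoietin. The samples did not overlap for 6 lower genes and 0 higher ones, against 3.93% and 4.52% of all named genes.

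On the higher side at 6 h, Mrpl2 (0.27 ± 0.23) and Mrpl32 (0.08 ± 0.06) had the smallest p-values and did not pass. At 2 h, Mrps10 differed by -1.82 ± 0.93 and Mrpl43 by 0.77 ± 0.54, Mrps9 by -0.12 ± 0.07 and Mrpl18 by 0.09 ± 0.06, all with an adjusted p of 1. The effect of erythropoietin at 6 h minus that at 2 h passed for no gene (0% of all named genes). Mrpl18 had the smallest p there, -0.26 ± 0.08 (adjusted p = 0.92), followed by Mrpl15 at -0.32 ± 0.13. Mrpl16 (0.15 ± 0.14) and Mrpl46 (0.14 ± 0.17) had the smallest p-values among the positive differences.

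**Figure D5:**
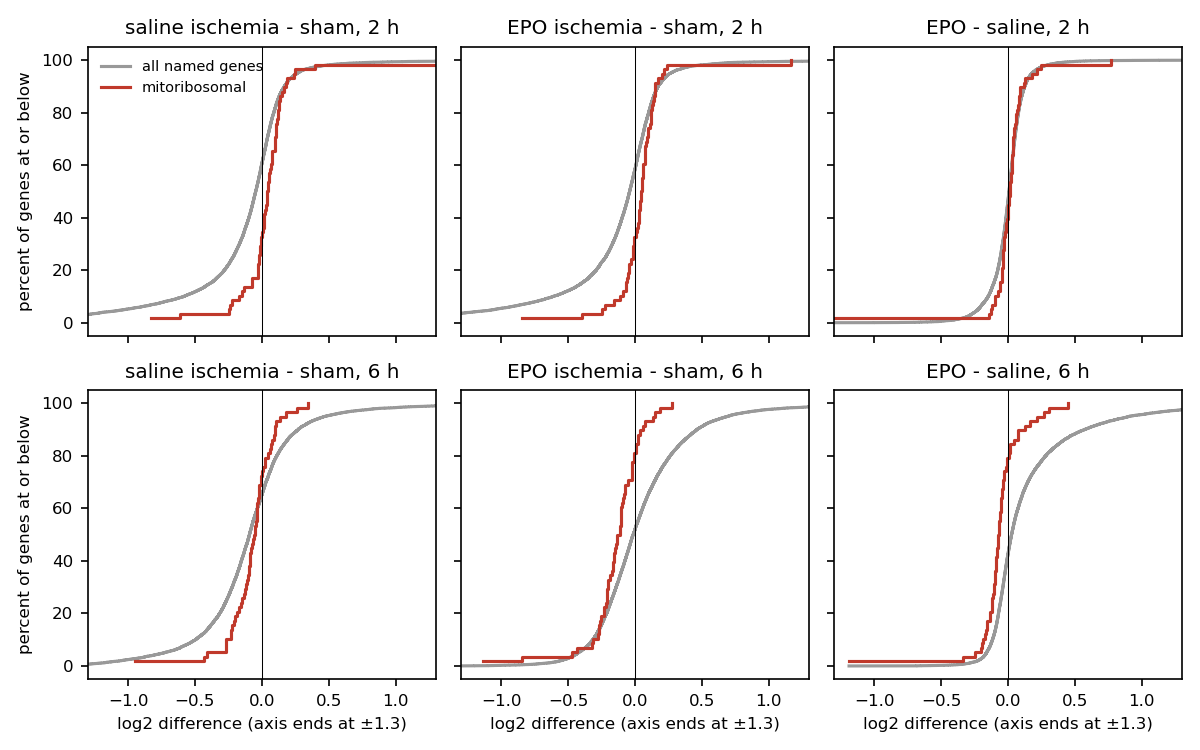
Cumulative distribution of the log2 differences of the 58 genes (red) and of the 12429 named genes that include them (grey) in 6 comparisons, with the percent of genes at or below each difference. The red curves are steeper than the grey, and for erythropoietin against saline at 6 h the red curve crosses 50% at -0.07 and the grey at 0.03. The probes of the 58 genes were brighter in the median, and their median SE was 0.086 against 0.111 for all named genes. Within single slides the median of the 58 for erythropoietin against saline at 6 h ran from -0.178 to 0.028.

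None of these genes passed the test for time alone. Between sham samples at 6 h and 2 h no gene of the 58 passed, where 0.636% of all named genes did, 0.426% higher and 0.209% lower. Unadjusted p-values below 0.05 in limma's test numbered 2 among the 58 and 1294 among the 12429 named genes. The median difference of the 58 was 0.02, and the samples did not overlap for 5 higher genes and 1 lower gene, against 8.37% and 11.6% of all named genes. Mrps31 differed by 0.22 ± 0.06 (adjusted p = 0.207) and Mrps30, a large-subunit protein in spite of its name, by 0.13 ± 0.06 (adjusted p = 0.54). Mrpl51 (-0.27 ± 0.14) and Mrpl42 (-0.20 ± 0.13) lay lower and did not pass.

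The effect of ischemia at 6 h minus that at 2 h also passed for none of the 58, where 1.94% of all named genes passed, 0.764% lower and 1.17% higher. Unadjusted p-values below 0.05 in limma's test numbered 6 among the 58 and 1774 among the 12429 named genes. The median effect of the 58 was -0.11, with 46 below 0, and that of all named genes was -0.01. In the authors' unscaled values the median of the 58 was 0.01. Mrpl46 had the smallest p: it was at 1.51, 1.90 and 1.73 in sham and 2.02, 1.93 and 1.93 with saline at 2 h, but 1.97, 1.94 and 1.92 in sham and 1.64, 1.74 and 1.65 with saline at 6 h. The samples lay apart in opposite directions at the 2 times, and the difference between them of -0.51 ± 0.16 had an adjusted p of 0.184. Mrpl45 (0.20 ± 0.09, adjusted p = 0.382) and Mrps34 (0.25 ± 0.14, adjusted p = 0.564) had the smallest p-values among the positive differences.

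A few genes could not be judged well. Mrps10, with a mean level of -3.69 and above background on 14 arrays, ranged from -5.50 to -1.38, and its 95% intervals had a half-width of 2.01. Mrps2, at a mean of -3.81, ranged from -4.88 to -2.72, and Mrpl43 had 1 sham sample at 2 h at -2.04 where all other samples lay above -0.5. Mrps7, the next in mean level (-2.26), was above background on all arrays. The probes of highest mean signal, Mrps34 (4.77), Mrpl41 (4.43) and Mrpl37 (4.15), were saturated on no array.

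Mrpl17, Mrpl27 and Mrpl34 were not tested, because the scanner software marked their spot as an outlier on 1 array each. With those spots kept, an alternative chosen after seeing the data, Mrpl34 differed from sham at 6 h by -0.37 ± 0.07 with erythropoietin (adjusted p = 0.00231) and by -0.21 ± 0.07 with saline (adjusted p = 0.067). Its levels at 6 h were 3.07, 3.04 and 3.08 in sham, 2.93, 2.86 and 2.77 with saline, and 2.58, 2.68 and 2.82 with erythropoietin, and the ischemic samples all lay below sham. Mrpl17 and Mrpl27 passed in none of the comparisons with their spots kept. Besides Mrpl41, 6 genes had more than 1 tested probe with the representative among them, and none of these probes passed in any comparison.

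Other genes of mitochondrial translation were followed in lists built from textbook knowledge, beside the 6.8% of all named genes that fell with saline at 6 h. With saline at 6 h, 2 of 19 assembly factors fell: Eral1, a GTPase that binds the small ribosomal RNA (-0.32 ± 0.07, adjusted p = 0.0121), and Fastkd2, an RNA-binding protein of large-subunit assembly (-0.34 ± 0.08, adjusted p = 0.0124). Of 16 aminoacyl-tRNA synthetases, Cars2, for cysteine, fell (-0.41 ± 0.09, adjusted p = 0.0116). Of 12 genes of mitochondrial transcription and RNA processing, the elongation factor Tefm fell (-0.30 ± 0.08, adjusted p = 0.0299). None of 9 translation factors and none of 5 mitoribosomal proteins with other names passed. Among these 5 is Mrpl58, printed on the array as Ict1, which the naming rule did not reach. The list medians were -0.17, -0.18, -0.11, -0.04 and 0.07 in that order, beside -0.09 over all named genes.

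Of 10 regulators of mitochondrial biogenesis, only Myc, a transcription factor that is also an immediate early gene, passed with saline at 6 h, where it rose by 1.52 ± 0.11 (adjusted p = 2.29e-06). Over all named genes 6.16% rose with saline at 6 h and 1.28% at 2 h. At 2 h the sole call in these 6 lists with saline was Trmt10c, a subunit of mitochondrial RNase P, which rose by 0.40 ± 0.08 (adjusted p = 0.0367).

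With erythropoietin at 6 h, where 10.8% of all named genes fell, 7 of 19 assembly factors fell, the largest Fastkd2 (-0.45 ± 0.08), with Mterf4, Mpv17l2 and Noa1 at -0.30 to -0.34. So did 5 of 16 synthetases (Cars2 by -0.46, Pars2 by -0.41 and Yars2 by -0.27 among them), 3 of 12 transcription and processing genes (Tefm, Tfb2m and Mterf2) and 3 of 9 translation factors. The last were Mtfmt, which formylates the initiator tRNA (-0.34 ± 0.08, adjusted p = 0.00852), the recycling factor Gfm2 (-0.46 ± 0.11, adjusted p = 0.0137) and the initiation factor Mtif2 (-0.23 ± 0.07, adjusted p = 0.0417). No gene of these 4 lists rose, Myc rose by 1.72 ± 0.11, and none of the 5 mitoribosomal proteins with other names passed. Their medians were -0.18, -0.18, -0.17 and -0.11 for the 4 lists in that order, beside -0.01 over all named genes; the difference of the lists from all genes was not tested.

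Some markers of cell types passed at 6 h beside these genes. Over all named genes 6.8% fell and 6.16% rose with saline at 6 h, and 10.8% fell and 8.22% rose with erythropoietin. Several of the marker counts are near these shares, and no list was tested against all genes. With saline, 3 of 11 neuron markers fell (Neurod6 by -0.81, Syt1 by -0.27 and Snap25 by -0.24), 3 of 9 endothelial markers fell, 2 of 9 microglial markers fell and 1 rose, and 2 of 4 neutrophil, 2 of 9 striatal neuron and 1 of 8 oligodendrocyte markers rose. None of 8 astrocyte and 3 red cell markers passed. Of the 4 neutrophil markers only 1 was above background on all arrays, and their summed signal was 0.223 to 0.51 in sham and 0.935 to 1.1 with saline. The summed linear signal of the neuron markers was 191 to 205 in sham and 176 to 179 with saline. With erythropoietin it was 165 to 182; 4 of 11 neuron markers fell, 7 of 9 striatal neuron markers rose, 4 of 9 endothelial (1 higher, 3 lower) and 4 of 9 microglial markers (2 each way) passed, and 1 of 8 astrocyte, 2 of 8 oligodendrocyte and 2 of 4 neutrophil markers rose.

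At 2 h with saline, the summed neuron signal was 206 to 225 against 199 to 209 in sham. No neuron marker passed limma's test (Syt1 differed by -0.28, adjusted p = 0.0672, and Neurod6 by 0.64, adjusted p = 0.0782). Of 9 microglial markers 1 rose (Cd68, 0.39), beside 1.28% of all named genes. The striatal neuron markers had a median difference of 0.49 and the oligodendrocyte markers one of 0.20, with no marker of either list passing. The summed oligodendrocyte signal was 254 to 256 in sham and 279 to 293 with saline. In bulk tissue, fewer cells of a type and less RNA per cell cannot be told apart, and the part of cell composition in the results at 2 h and 6 h, the Mrpl41 difference included, was not tested.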

How the data were processed

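Cortex RNA from 18 rat samples was labelled with Cy3 and hybridised to 1-colour Agilent arrays. The deposited scanner files, made with Agilent Feature Extraction 9.1.1.1 per the submitters' processing notes, hold for each spot a processed signal intensity, background-corrected per the file headers. The authors' deposited value table is the log2 of that intensity, with no scaling between arrays (largest difference 5.3e-14). The genome build behind the probes is not given in the sources used here. The gene set and lists were chosen with earlier results of these data known.

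Control spots and outlier flags were left out, spots of a probe averaged, and each array's 75th percentile over non-control spots subtracted. Group means of all 18 arrays were fitted with limma 3.58.1 (R 4.3.3, 12 residual degrees of freedom; statmod 1.5.0 for random blocks) and the moderated two-sided test adjusted by Benjamini-Hochberg over 28637 probes. The script was tested on simulated data. Precision is limited by the 18 arrays, 3 per group. The 71 probes were named by accession (23), symbol (47) or synonym (1). Named in the text are the genes past the threshold (at most 12 a direction), up to 2 of smallest p in a direction with fewer than 2, Mrpl41 throughout, the 3 of highest and lowest mean level, those below background and, of each pathway list, at most 4 calls per comparison; Mrpl34 and the genes of unadjusted p below 0.05 were chosen after their values were seen.

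Same-numbered samples deviated together in all 3 replicates only for erythropoietin against saline at 2 h (correlations across the probes tested of 0.635 to 0.887). Erythropoietin replicate 3 correlated more with a saline sample of another number. Replicate 1 of both groups was a steep array and the others were not, and the part of array quality in these correlations was not tested. For that comparison a replicate block gave 0 calls, as without it. Other comparisons were mixed or negative. The correlations were 0.535, 0.838 and -0.708 for saline-treated ischemia against sham at 6 h, and -0.567, 0.271 and 0.812 for erythropoietin against saline at 6 h. Alternatives covered scaling, background, filters, slide, replicate block, arrays in the fit, spike-in slope, variance model, probe choice, threshold and each array left out.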

Additional observations from a re-analysis of the deposited data

How the results depend on the processing

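Of the 58 genes, the number called for saline-treated ischemia at 2 h (1) was 0 with only the arrays compared and 0 without the steep arrays. At 6 h (2) it was 1 with quantile scaling, 1 with no filter and 1 with only the arrays compared, and each array left out gave 1 to 3 (the count without the steep arrays, where saline replicate 2 alone was left, is not given). For erythropoietin-treated ischemia at 2 h (1) it was 0 with slide as a fixed block, 0 with only the arrays compared and 0 without the steep arrays, and its median difference moved from 0.05 to -0.06 in the authors' unscaled values, where the median for ischemia at 6 h minus 2 h moved from -0.11 to 0.01. At 6 h (8) it was 2 in those values, 4 with normexp, 3 with no filter, 5 with slide as a fixed block, 4 with the replicate block, 1 with only the arrays compared, 2 without the steep arrays and 4 with the percentile over probes (chosen after seeing the data); arrays left out gave 3 to 9. The replicate block changed no other count of calls among these genes. The fits with fewer arrays have fewer degrees of freedom. For the other changes the cause was not tested. Of the 34 alternatives for a gene, 18 leave out 1 array each, and those outside the groups compared leave its estimate unchanged. Mrpl41 passed in 32 of 34 alternatives at 2 h and 33 of 34 at 6 h with saline, and in 31 and 34 with erythropoietin, always lower. Signs turned only for differences that had not passed: Mrpl41 for erythropoietin against saline at 2 h was 0.009 with normexp and -0.119 to 0.046 with each array left out (above 0 without saline replicate 1 or 3 or erythropoietin replicate 2), Mrpl2 at 6 h was -0.009 to 0.501 (below 0 without erythropoietin replicate 1), and Mrps18b for erythropoietin-treated ischemia at 2 h was 0.018 with quantile scaling and 0.023 with spike-in slope as a covariate. Over all probes, saline-treated ischemia at 6 h gave 1372 higher and 1792 lower calls, 1467 and 1124 with quantile scaling, and 849 and 416 unscaled. Dim probes (Mrps10, Mrps2) are limited by signal over background.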
